A study of Mus musculus with 32 samples.

Results

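The experiment described here is the response of Gata2 enhancer-deleted mouse progenitors to interferon gamma (IFNg). It comprises 8 of the 32 RNA-seq libraries of the series, chosen by sample title: 4 libraries of mutant cells exposed to IFNg at 1 ng/ml for 4 h and 4 libraries of mutant cells given vehicle over the same time. The mutant cells are the line hi-77-/-, genotype Gata2 -77-/-, in which both copies of an upstream enhancer of Gata2 are deleted. For comparison, 4 IFNg and 4 vehicle libraries of the wild-type line hi-77+/+, genotype Gata2 -77+/+, were used, and 4 libraries each of mutant cells given Pam3CSK4 at 100 ng/ml, a lipopeptide that activates Toll-like receptor 2, or IFNg and Pam3CSK4 together are quoted in one paragraph. All groups share a fetal liver origin, immortalisation with ER-HOXB8 and culture with SCF-conditioned medium, beta-estradiol and G418. ER-HOXB8 is an estrogen receptor fusion of the homeobox protein HOXB8 that holds progenitors in cycle while estradiol is present. Each genotype was a single immortalised line, so a difference between genotypes cannot be told apart from a difference between lines. Whether replicate libraries stem from independent cultures is not given in the labels, and p-values then measure only the spread between these libraries.

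IFNg binds a receptor built from the chains IFNGR1 and IFNGR2, which carry the kinases JAK1 and JAK2. The kinases activate a STAT dimer that binds the GAS element in promoters, and the transcription factor IRF1, itself made in the first wave, acts with related factors at the ISRE element. Target genes encode GTPases that attack the vacuoles of intracellular microbes, antiviral enzymes, proteins of MHC class I presentation, chemokines, and inhibitors such as SOCS1 that end the signal. In blood-forming progenitors IFNg is known as a signal of infection that can push cells out of their resting state. GATA2, a zinc finger factor of stem and progenitor cells, is needed to maintain such cells.

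Values are CPM, a gene's count relative to the library total after TMM scaling, given per library or as mean ± SD of 4 libraries, and changes are log2 fold changes ± SE of IFNg over vehicle. A gene was called where its Benjamini-Hochberg adjusted p in edgeR's quasi-likelihood test was under 0.05. Library totals lay between 48.27 M and 71.42 M expected counts in the 8 mutant libraries. Small structural and mitochondrial RNA made up 21.1 ± 3.89% of counts in the mutant IFNg libraries and 25.8 ± 1.78% in the mutant vehicle libraries (SD, n = 4 each, exact two-sided permutation p = 0.0571). The smallest p that 4 against 4 libraries can give is 0.0286. Coordinates refer to mm10.

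Gata2 (ENSMUSG00000015053.14, chromosome 6, 88193891 to 88207032) stood at 6.97, 6.01, 6.74 and 6.59 CPM in the mutant IFNg libraries and at 6.62, 8.03, 7.37 and 8.06 CPM in the mutant vehicle libraries, and its change of -0.19 ± 0.11 did not pass the test (adjusted p = 0.182). The wild-type line held 38.6 ± 1.9 CPM with IFNg and 43.4 ± 8.27 CPM with vehicle, and between the vehicle groups the mutant line was lower by log2 -2.53 ± 0.10 (adjusted p = 1.0e-19). Counts over the gene itself do not check the deletion of a distant enhancer. Progenitor markers were abundant in the mutant cells: Cd34 stood at 1718 ± 20.5 CPM with IFNg and 1789.9 ± 42.8 CPM with vehicle, Myb at 635 ± 35.8 and 678 ± 30.0 CPM, and the receptor tyrosine kinases Flt3 at 327 ± 11.7 and 373 ± 5.08 CPM and Kit at 253 ± 5.3 and 295 ± 10.4 CPM. The last pair fell slightly, by 0.19 ± 0.03 (adjusted p = 4.8e-05) and 0.22 ± 0.04 (adjusted p = 8.3e-05). With library totals alone neither passed, at -0.13 and -0.16. Summed over lists of marker genes, liver cell transcripts reached at most 8.57 CPM in an IFNg library and 9.74 CPM in a vehicle library, and stromal and endothelial transcripts at most 17.7 and 18.5 CPM. Every mutant library held the X-inactivation RNA Xist (518, 549, 528 and 527 CPM with IFNg, 519.7, 459, 390.5 and 549 CPM with vehicle) together with Y-linked transcripts such as Ddx3y, at 25.5 to 31.2 CPM with IFNg and 25.1 to 27.2 CPM with vehicle. The wild-type libraries held at most 0.0801 CPM of Xist and at least 107 CPM of Ddx3y. Neither transcript passed the test between the mutant groups.

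The comparison asks which genes IFNg moved in progenitors in which Gata2 was low. IFNg switched on the GTPase defence genes, raised the transcription factors, antiviral proteins and peptide transporters of the interferon programme, and raised a set of chemokines and cytokines. Falls were many and mostly small, and touched the receptor for IFNg itself, the chemokine receptor gene Cxcr4 and early B lymphoid genes. Of 14869 genes tested, 2722 rose (18.3%) and 2216 fell (14.9%), so that 55.1% of called genes were risers. The balance of rises and falls depended on the scaling and the filter. Scaling by library totals alone gave 2650 risers and 1139 fallers, or 69.9% risers. Risers were the minority with DESeq2 (2526 and 2616 fallers, 49.1%), with RLE size factors (2483 and 2539, 49.4%) and with a stricter filter (2385 and 2588, 48.0%). At least 2-fold rises numbered 335 (2.25% of genes tested) and falls of that size 125 (0.841%). On the log2 scale the median change of called risers was 0.248 and that of called fallers -0.279, so that 2387 of the rises and 2091 of the falls were under 2-fold. The median over all tested genes was -0.01.

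Rises of at least 2-fold outnumbered falls of that size, also under equal limits on level. Among called genes with a mean of at least 5 CPM in a group and a named symbol, 126 risers and 10 fallers reached 2-fold. Under these limits 0 fallers reached 4-fold in edgeR's test. With no limit on level or symbol, rises of at least 16-fold were called for 77 genes. Of the 125 fallers of at least 2-fold, 91 lay below 1 CPM with vehicle. Of the 335 risers of at least 2-fold, 95 lay below 0.1 CPM with vehicle and 211 below 1 CPM, while 49 had 10 CPM or more before IFNg. Their summed level was 11773 to 12445 CPM across the IFNg libraries, against 1816 to 1836 CPM across the vehicle libraries. These sums describe genes picked for their rise and are not tested.

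**Figure D1:**
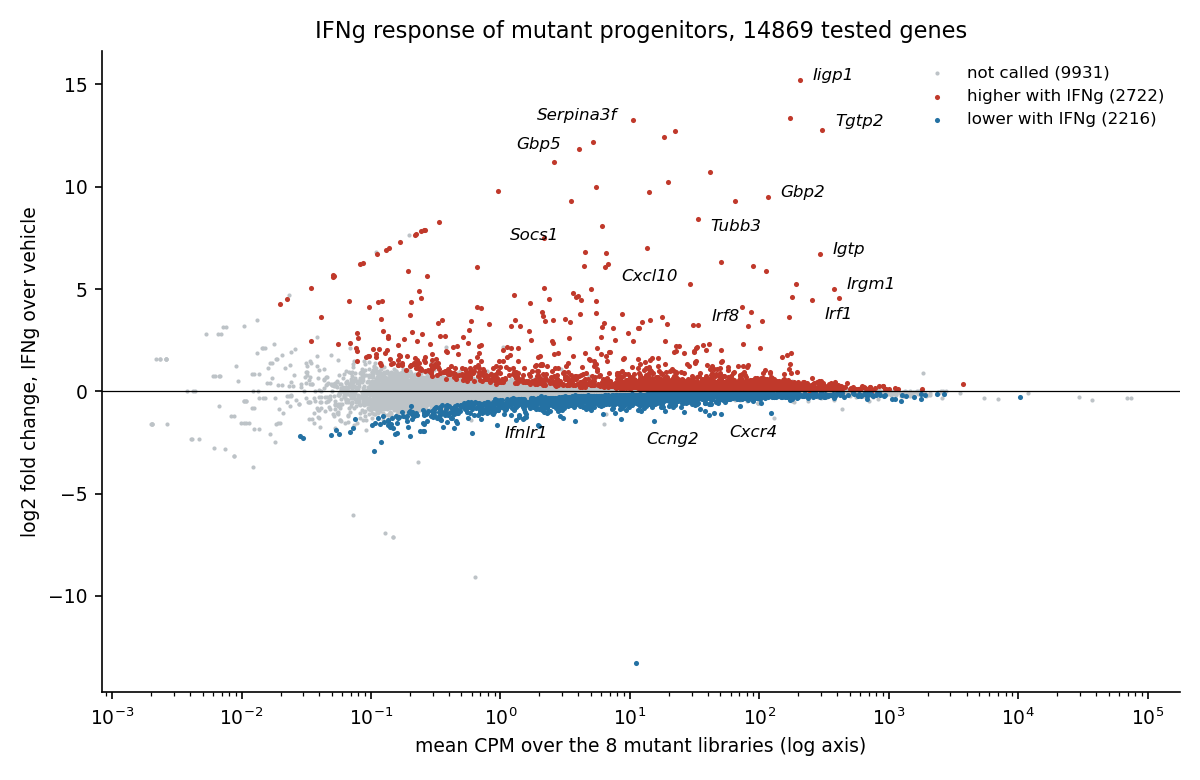
Log2 fold change of IFNg over vehicle in the mutant line (vertical axis) against mean CPM over the 8 mutant libraries (log axis) for 14869 tested genes, with 2722 called risers in red, 2216 called fallers in blue and the other genes in grey. The rises of Iigp1, Tgtp2 and Gbp2 exceed 9 on the log2 scale, while named fallers such as Ccng2 and Cxcr4 stay near 1; the lowest blue point is Rnu3a, a small structural RNA left out of the named genes.

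The receptor chains fell. Ifngr1 (ENSMUSG00000020009.13, chromosome 10, 19591949 to 19610229), the ligand-binding chain, stood at 71.4, 79.5, 76.5 and 75.6 CPM in the mutant IFNg libraries, against 106, 104, 107 and 102 CPM in the mutant vehicle libraries. No IFNg library reached the lowest vehicle library, and the gene fell by 0.47 ± 0.04 (adjusted p = 2.5e-11). Ifngr2, the signalling chain, stood at 22.5, 23.2, 23.1 and 22.5 CPM with IFNg and 30.3, 30.3, 30.3 and 30.4 CPM with vehicle and fell by 0.41 ± 0.05 (adjusted p = 1.2e-08). Of the type I interferon receptor chains, Ifnar1 fell by 0.26 ± 0.03 and Ifnar2 rose by 0.21 ± 0.04. The kinase genes moved little: Jak1 had 114 ± 5.46 CPM with IFNg and 108 ± 2.43 CPM with vehicle (log2 0.08 ± 0.03, adjusted p = 0.0639), and Jak2 had 34 ± 1.4 and 32.5 ± 0.551 CPM (log2 0.06 ± 0.04, adjusted p = 0.24), neither past the test. Jak1 passed without mutant IFNg replicate 3, at log2 0.10.

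Downstream factors rose steeply. Irf1 (ENSMUSG00000018899.16, chromosome 11, 53770014 to 53778374), the transcription factor of the first wave, had 479, 489, 492 and 511 CPM in the mutant IFNg libraries, against 22.1, 24.8, 21.7 and 21.5 CPM in the mutant vehicle libraries. All 4 IFNg libraries lay around 21.9-fold above vehicle (log2 4.45 ± 0.05, adjusted p = 3.2e-39). Irf8 (ENSMUSG00000041515.10, chromosome 8, 120736358 to 120756694), which directs monocyte and dendritic cell fate, had 198, 189.9, 187 and 192 CPM with IFNg and 16.1, 18.8, 18.1 and 18.2 CPM with vehicle (log2 3.43 ± 0.05, adjusted p = 1.8e-34). Irf9, the DNA-binding part of the complex that reads the ISRE, had 50.4, 54.1, 56.4 and 54 CPM and 11.6, 13.6, 12.1 and 11.4 CPM (log2 2.14 ± 0.06), and its partner Stat2 had 34, 39.3, 38.9 and 37.5 CPM and 7.98, 7.73, 8.32 and 8.03 CPM (log2 2.22 ± 0.06). Irf7, the amplifier of type I interferon production, rose by 3.08 ± 0.11 to 13.2 ± 0.907 CPM, against 1.55 ± 0.264 CPM with vehicle. Irf2, Irf3, Irf4 and Irf5 did not pass, with log2 changes from -0.04 (Irf3) to 0.10 (Irf2). Stat3, which transmits interleukin 6 type signals, rose by 1.10 ± 0.04 to 231 ± 6.89 CPM, against 108 ± 4.11 CPM.

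Of 17 further transcription factors and coregulators known as interferon-induced, 16 were tested, and 15 rose and 0 fell (median log2 1.05). Batf2, a basic leucine zipper factor that works with IRF1 in macrophages, had 13.1, 11.9, 12 and 13.8 CPM with IFNg, against 0.0974, 0.214, 0.216 and 0.225 CPM with vehicle (log2 6.07 ± 0.18). Nlrc5, the coactivator at MHC class I promoters, had 244, 245, 239 and 278 CPM with IFNg and was already at 75.4, 73.7, 76.6 and 71.7 CPM with vehicle (log2 1.76 ± 0.05, adjusted p = 3.9e-26). Ciita, its counterpart for MHC class II, stayed near the lower limit of detection, at 0.0877, 0.168, 0.242 and 0.0944 CPM with IFNg and 0.0325, 0.0854, 0.0333 and 0.0321 CPM with vehicle, a called rise (log2 1.75 ± 0.57, adjusted p = 0.0162) that rests on 35 counts with IFNg and 10 with vehicle. Without mutant IFNg replicate 3 its change was 1.35 and did not pass.

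Several feedback inhibitors rose as well. Socs1 (ENSMUSG00000038037.5, chromosome 16, 10782240 to 10785536), which binds JAK kinases and marks them for destruction, had 9.97, 7.82, 8.31 and 9.39 CPM in the mutant IFNg libraries, against 0.0974, 0, 0.15 and 0.0482 CPM in the mutant vehicle libraries. Its vehicle level rests on 18 counts in all 4 libraries, and the change was 6.79 ± 0.26 on the log2 scale (adjusted p = 9.7e-21). Socs3 rose by 3.11 ± 0.08 to 20.6 ± 0.841 CPM, against 2.38 ± 0.401 CPM, and Cish by 3.40 ± 0.16 to 6.28 ± 0.381 CPM, against 0.602 ± 0.232 CPM. Usp18, which blocks the type I interferon receptor and strips ISG15 from proteins, rose by 3.51 ± 0.09 to 26.5 ± 0.911 CPM, against 2.33 ± 0.142 CPM. Over the list of 18 JAK-STAT inhibitors 10 rose, 4 of them at least 2-fold, and 2 fell (median log2 0.14). Over all tested genes 18.3% rose and 14.9% fell. The 2 fallers of the list were Pias3 (by 0.68 ± 0.10) and Pias1 (by 0.16 ± 0.04), which encode nuclear inhibitors of STAT proteins. The call of Pias1 was lost with library totals alone.

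**Figure D2:**
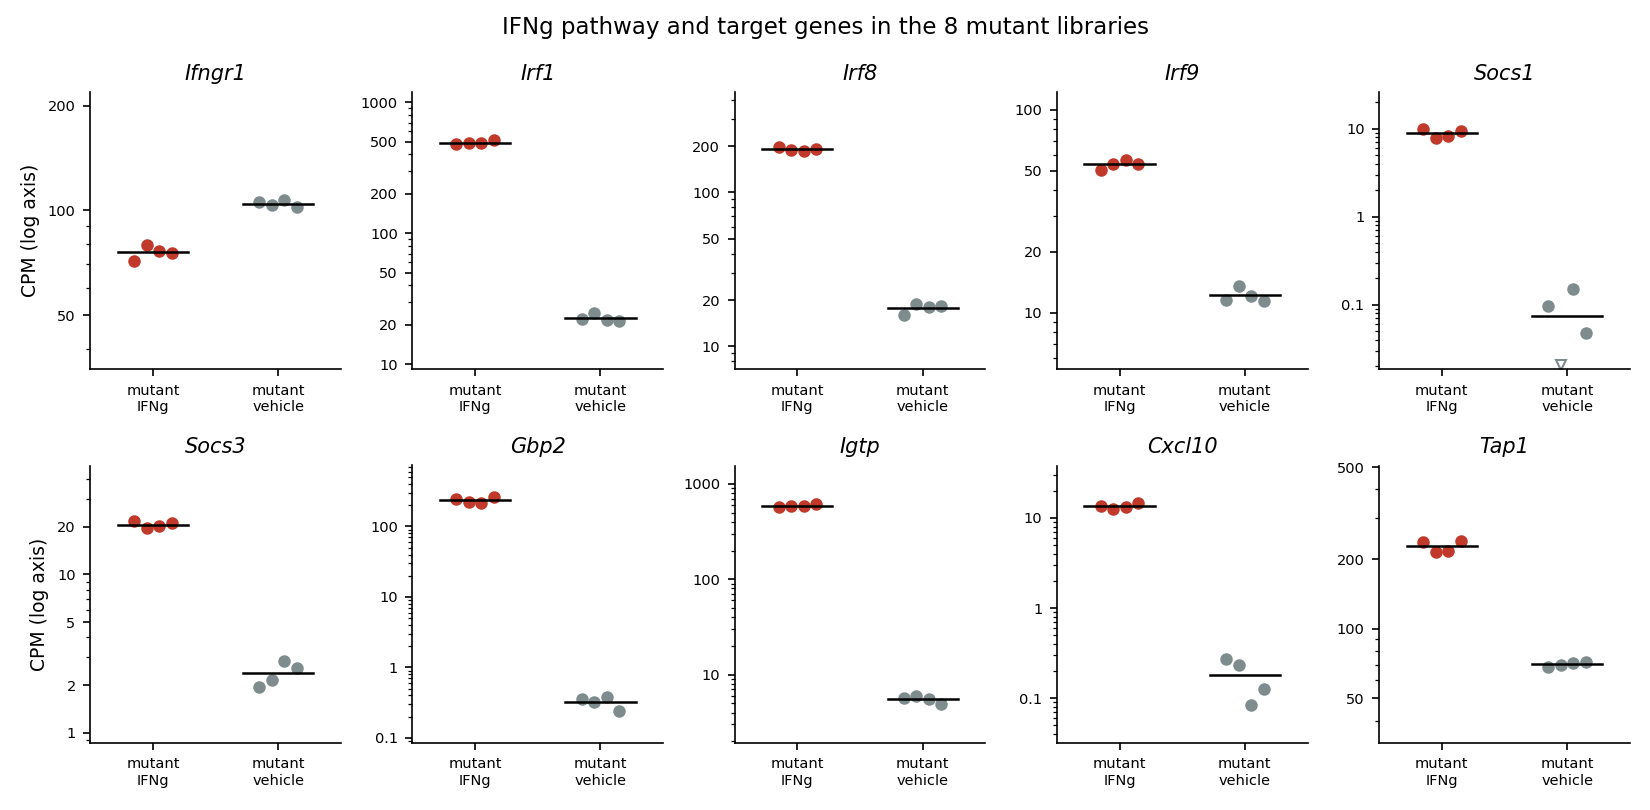
CPM on a log axis in each of the 4 mutant IFNg libraries (red, left) and the 4 mutant vehicle libraries (grey, right) for 10 genes of the IFNg pathway, with the mean as a black line and an open triangle at the lower edge for a library at 0. Ifngr1 lies lower with IFNg, at 75.7 against 105 CPM on average, and the other 9 genes lie higher with no overlap between the groups.

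The interferon-inducible GTPases made up the steepest part of the response. All 10 tested guanylate-binding protein (GBP) genes rose (median log2 6.75, or 5.44 with genes undetected before IFNg at their bounds), as did 13 of 14 immunity-related GTPase (IRG) genes (median 8.02). GBP proteins coat and break the vacuoles and membranes of microbes, and IRG proteins do so in mice at the vacuoles of parasites and bacteria. Irgm1 (ENSMUSG00000046879.7, chromosome 11, 48861968 to 48871683), a regulator of the other IRG proteins, had 717, 721, 747 and 756 CPM with IFNg and 23.2, 24.4, 22.7 and 22.7 CPM with vehicle (log2 4.98 ± 0.05, adjusted p = 3.2e-40). Igtp, also called Irgm3 (ENSMUSG00000078853.8, chromosome 11, 58199556 to 58207591), had 572, 582, 588 and 612 CPM with IFNg and 5.65, 5.94, 5.61 and 4.91 CPM with vehicle (log2 6.74 ± 0.06, adjusted p = 3.2e-40). The effector Iigp1 (ENSMUSG00000054072.12, chromosome 18, 60376027 to 60392634) was nearly silent before IFNg, with 2 counts in all vehicle libraries together, and had 447, 395, 398 and 419 CPM with IFNg. The ratio was 47900 with a 95% counting interval of 13200 to 395000.

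Tgtp1 and Tgtp2 are near-identical neighbours on chromosome 11, so their reads may be divided wrongly between them. Tgtp2 had 633, 607, 592 and 629 CPM with IFNg, against 0.0649, 0.171, 0.0998 and 0.0321 CPM with vehicle, and Tgtp1 had 360.5, 323, 331 and 356 CPM, against 0.0325, 0, 0 and 0.0803 CPM. Both were switched on in every IFNg library. Irgm2 rose by 5.87 ± 0.07 to 223 ± 10.1 CPM, against 3.83 ± 0.314 CPM, and Ifi47 by 4.14 ± 0.08 to 139.8 ± 3.34 CPM, against 7.92 ± 0.462 CPM. Irgq was the exception and fell by 0.58 ± 0.08. The predicted genes Gm12250 (log2 9.29 ± 0.12), Gm4951 (ratio 10300, counting interval 1850 to 407000) and Gm4841 (ratio 8390, counting interval 1510 to 331000) were switched on too. As with all the close-knit families in this account (GBP, IRG, Ifi200, Schlafen, MHC), division of shared reads between copies is uncertain.

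Among the GBP genes, those on chromosome 3 held most of the CPM. Gbp2 (ENSMUSG00000028270.12, chromosome 3, 142620602 to 142638008) had 242, 219, 216 and 259 CPM in the mutant IFNg libraries, against 0.357, 0.32, 0.383 and 0.241 CPM in the mutant vehicle libraries (log2 9.48 ± 0.15, adjusted p = 3.5e-27). Gbp7 had 339.5, 332, 324 and 372 CPM with IFNg and 13.1, 14.7, 14.3 and 13.9 CPM with vehicle (log2 4.61 ± 0.07), and Gbp3 had 57.4 ± 4.35 and 1.5 ± 0.298 CPM (log2 5.25 ± 0.10). Gbp5, an activator of inflammasomes, had 0 counts in all 4 vehicle libraries and 8.67, 7.48, 7 and 9.1 CPM with IFNg. With a floor of 3 counts over the vehicle group it was at least 616-fold higher. On chromosome 5, Gbp6 had 28.4, 27, 27.5 and 29.4 CPM with IFNg from 7 vehicle counts, Gbp4 stood at 6.95 ± 0.977 CPM with IFNg and 2 vehicle counts (ratio 794, interval 219 to 6560), and Gbp8 to Gbp11 stayed at or below 4.25 ± 0.816 CPM.

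Per unit of transcript length, these GTPases stood among the strongest induced RNAs. Over all called risers the genes of highest level with IFNg included some that were already abundant with vehicle and rose little. Examples were Hspa8, a chaperone (765 ± 162 TPM with IFNg, 489 ± 46.9 TPM with vehicle, log2 0.35 ± 0.04), Ifitm1 (450.3 ± 80.5 and 294 ± 10.7 TPM, log2 0.30 ± 0.04) and B2m (411 ± 73.1 and 288 ± 20.6 TPM, log2 0.21 ± 0.04). Among risers of at least 2-fold, a limit added after the values were seen, Irgm1 was highest at 145 ± 31.2 TPM with IFNg, against 3.72 ± 0.257 TPM with vehicle. Igtp followed at 126 ± 28.1 TPM, against 0.95 ± 0.02 TPM, then Irf1 at 99.4 ± 21.6 TPM, against 3.68 ± 0.184 TPM. Irgm1 and Igtp differed by less than either SD, whereas Igtp and Irf1 differed by less than the SD of Igtp and more than that of Irf1. TPM divides by a total that includes the structural RNA, whose share differed between libraries. For the genes in this paragraph, ratios of TPM were larger than the scaled log2 changes. The reason was not tested.

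Promoter windows of the induced genes often held the letters of interferon elements. Windows from RefSeq (GRCm38.p6, 250 bases before to 50 after a gene's start) were found for 9921 of 14852 tested symbols and for 202 of 335 risers of at least 2-fold. The GAS letters TTCNNNGAA and the ISRE core letters GAAANNGAA were searched on both strands, and a window may hold both. Of windows of 2-fold risers, 31.7% held the ISRE core and 15.6% a GAS, against 7.37% and 6.91% of windows of all tested genes. For risers of at least 16-fold the shares were 62.5% and 27.1% of 48 windows. Called risers under 2-fold (7.69% and 7.94%) and called fallers (5.6% and 6.36%) were near the share of all tested genes. These shares describe letters, not bound sites.

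The windows of 6 genes are shown 5′ to 3′ in the direction of the gene, since they cover a GAS alone (Irf1, Irf8), both elements (Igtp), an ISRE core alone (Gbp2, Cxcl10) and neither (Tubb3, a strong riser described below). Capitals mark the matched letters, and positions count from the gene's start as +1. Irf1 and Irf8 had 2 windows each, and the window not shown held neither element. Irf1 held TTCCCCGAA at -90 to -82. Igtp held TTCTAGGAA at -45 to -37 with GAAACTGAA at -34 to -26, and Irf8 held 2 GAS matches, TTCTCGGAA and TTCAGAGAA. The windows lie at chr11:53769764-53770063 (plus strand) for Irf1, chr8:120736108-120736407 (plus) for Irf8, chr11:58199306-58199605 (plus) for Igtp, chr3:142620413-142620712 (plus) for Gbp2, chr5:92348840-92349139 (minus) for Cxcl10 and chr8:123411303-123411602 (plus) for Tubb3.
Irf1: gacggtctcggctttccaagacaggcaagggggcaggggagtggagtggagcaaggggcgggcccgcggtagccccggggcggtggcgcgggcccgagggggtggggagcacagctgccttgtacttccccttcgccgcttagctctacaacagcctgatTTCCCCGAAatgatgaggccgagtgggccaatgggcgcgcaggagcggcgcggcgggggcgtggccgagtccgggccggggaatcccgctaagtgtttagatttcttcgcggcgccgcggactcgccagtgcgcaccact
Irf8: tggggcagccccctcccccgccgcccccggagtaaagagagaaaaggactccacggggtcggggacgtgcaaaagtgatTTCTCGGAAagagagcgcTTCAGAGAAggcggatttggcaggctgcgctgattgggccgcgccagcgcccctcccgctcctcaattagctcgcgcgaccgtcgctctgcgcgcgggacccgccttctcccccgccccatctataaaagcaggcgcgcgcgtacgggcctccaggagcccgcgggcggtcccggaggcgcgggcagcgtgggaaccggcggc
Igtp: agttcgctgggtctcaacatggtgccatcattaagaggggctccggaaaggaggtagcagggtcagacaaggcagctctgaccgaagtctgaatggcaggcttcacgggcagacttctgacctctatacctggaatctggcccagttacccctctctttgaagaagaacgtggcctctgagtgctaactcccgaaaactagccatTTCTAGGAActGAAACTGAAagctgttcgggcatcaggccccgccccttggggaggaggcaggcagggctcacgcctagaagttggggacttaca
Gbp2: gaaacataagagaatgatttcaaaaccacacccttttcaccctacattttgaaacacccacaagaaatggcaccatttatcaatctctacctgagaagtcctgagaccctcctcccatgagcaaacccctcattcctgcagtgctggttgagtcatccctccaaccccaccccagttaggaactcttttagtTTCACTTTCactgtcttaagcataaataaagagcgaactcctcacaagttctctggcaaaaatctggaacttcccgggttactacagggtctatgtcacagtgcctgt
Cxcl10: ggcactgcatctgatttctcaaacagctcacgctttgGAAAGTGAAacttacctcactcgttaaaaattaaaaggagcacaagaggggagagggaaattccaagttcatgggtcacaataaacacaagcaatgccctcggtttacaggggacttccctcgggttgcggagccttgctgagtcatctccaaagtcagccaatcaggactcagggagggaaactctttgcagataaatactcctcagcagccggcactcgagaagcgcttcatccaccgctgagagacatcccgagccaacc
Tubb3: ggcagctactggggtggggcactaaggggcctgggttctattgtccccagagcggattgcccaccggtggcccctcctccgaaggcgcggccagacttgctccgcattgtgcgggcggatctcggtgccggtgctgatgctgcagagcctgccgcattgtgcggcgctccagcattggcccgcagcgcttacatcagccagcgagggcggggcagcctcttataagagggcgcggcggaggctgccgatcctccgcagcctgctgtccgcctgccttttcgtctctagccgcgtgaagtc

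Antiviral effectors rose in 32 of 36 tested cases (median log2 1.60). Isg15, a ubiquitin-like modifier, had 6.63, 7.19, 6.81 and 7.65 CPM with IFNg, against 0.325, 0.192, 0.333 and 0.145 CPM with vehicle (log2 4.80 ± 0.20, adjusted p = 4.7e-20). Zbp1, a sensor of Z-form nucleic acids that triggers cell death, had 12.5, 13.2, 11.8 and 11.1 CPM, against 0.0162, 0.0854, 0 and 0.0803 CPM (log2 8.06 ± 0.27). Oligoadenylate synthetases, which sense double-stranded RNA, rose by 3.48 ± 0.22 (Oas2) and 3.30 ± 0.31 (Oas3), and the related Oasl2 rose by 4.66 ± 0.20. Rsad2, or viperin, rose by 3.77 ± 0.15, and Ifit1, which binds foreign RNA caps, by 3.42 ± 0.21 to 4.04 ± 0.492 CPM, against 0.375 ± 0.0932 CPM. The RNA helicase sensors Ddx58 (RIG-I) and Ifih1 (MDA5) rose by 1.63 ± 0.06 and 1.65 ± 0.07. Mx1 rose by 0.87 ± 0.09 to 22.3 ± 0.863 CPM, against 12.2 ± 0.474 CPM with vehicle, whereas Mx2 had 18.8, 18.3, 19 and 19.5 CPM with IFNg and 21.4, 19.5, 19.4 and 19.5 CPM with vehicle and did not pass (log2 -0.08 ± 0.08).

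Smaller interferon-linked families moved in the same direction. All 8 PARP-family list members rose (median log2 1.81), led by the ADP-ribosyltransferases Parp14 (162 ± 11.9 CPM with IFNg, 10.8 ± 0.724 CPM with vehicle, log2 3.90 ± 0.07) and Parp12 (log2 3.81 ± 0.12), with Dtx3l, the ubiquitin ligase partner of PARP9, at log2 2.12 ± 0.04. Ifi200-family DNA sensors rose in 9 of 10 tested cases (median 2.73), including Ifi211 (4.60 ± 0.18), Ifi206 (4.49 ± 0.19) and Ifi204 (1.18 ± 0.07). Aim2, the inflammasome sensor of this family, had 28.2 ± 2.76 CPM with IFNg and 28.4 ± 0.943 CPM with vehicle and did not pass. Schlafen genes rose in 5 of 6 cases, with Slfn2 at 4.37, 4.79, 4.62 and 4.55 CPM with IFNg, against 0.146, 0.278, 0.216 and 0.161 CPM with vehicle. Ly6a, which encodes the stem cell antigen Sca-1, had 4.3 ± 0.518 CPM with IFNg from 5 vehicle counts in 4 libraries (log2 7.50 ± 0.27, adjusted p = 2.7e-22). Enzymes of ISG15 conjugation rose too, with Ube2l6 at log2 3.13 ± 0.10 and Uba7 at 0.90 ± 0.05.

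**Figure D3:**
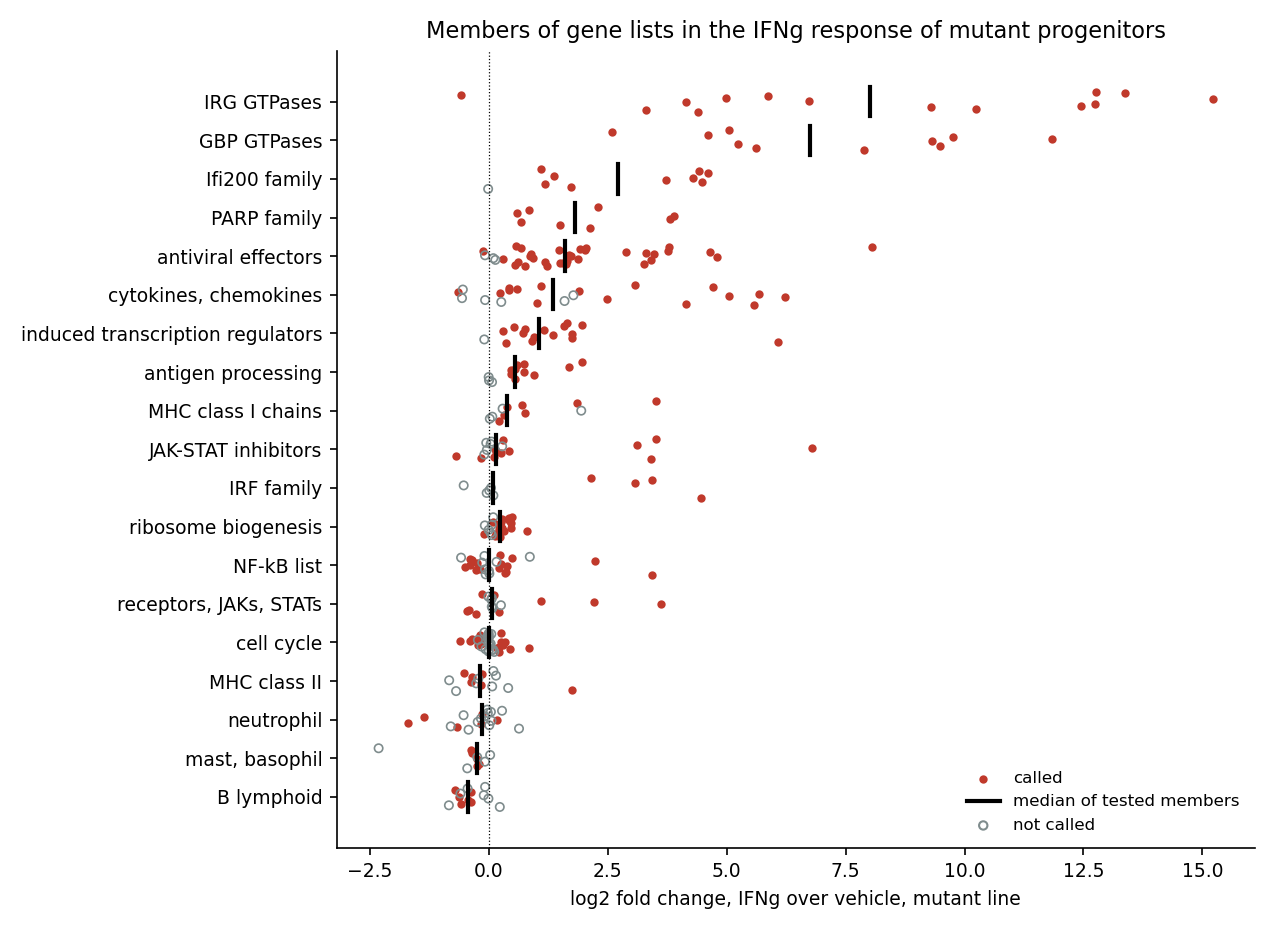
Log2 fold change of IFNg over vehicle in the mutant line for every tested member of 19 gene lists, filled where called and open where not, with a black bar at each list's median. The IRG and GBP medians lie at 8.02 and 6.75, the PARP and antiviral medians at 1.81 and 1.60, and the neutrophil, mast cell and B lymphoid medians at the bottom lie below 0.

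In MHC class I presentation, genes of peptide supply rose, and the classical heavy chain genes H2-D1 and H2-K1 did not pass the test. Tap1 (ENSMUSG00000037321.17, chromosome 17, 34187553 to 34197225), a subunit of the peptide transporter, had 237, 215, 217 and 238 CPM with IFNg, against 68.5, 69.5, 70.9 and 72 CPM with vehicle (log2 1.69 ± 0.04, adjusted p = 2.5e-27). Tapbpl, a peptide editor, rose by 1.96 ± 0.07, Tap2 by 0.60 ± 0.07 and Tapbp by 0.73 ± 0.06. The immunoproteasome subunits Psmb8, Psmb9 and Psmb10 rose by 0.47 ± 0.03, 0.73 ± 0.05 and 0.96 ± 0.07. Altogether 10 of 13 antigen processing genes rose and 0 fell (median 0.56). Of 11 tested heavy chain genes 7 rose and 0 fell (median 0.38), and the 2 lists were not tested against each other. The classical genes H2-D1 (373, 362, 370.2 and 362 CPM with IFNg, 342, 376, 374 and 354 CPM with vehicle) and H2-K1 (354, 339, 342 and 356 CPM with IFNg, 324, 348, 336 and 314 CPM with vehicle) did not pass, at log2 0.02 ± 0.03 and 0.07 ± 0.03, and their libraries overlapped. H2-K1 passed with library totals alone (log2 0.137) and with the structural RNA share as covariate (0.104). It also passed without mutant IFNg replicate 2 (0.087) or mutant vehicle replicate 2 (0.10). The nonclassical genes H2-T23 (1.85 ± 0.05) and H2-T24 (3.52 ± 0.16) and the light chain gene B2m (0.21 ± 0.04) rose. MHC class II list genes had 1 rise (Ciita) and 5 falls among 14 tested, where 18.3% of all tested genes rose and 14.9% fell. Without mutant IFNg replicate 1 or 2 or mutant vehicle replicate 2, 3 or 4 there were 1 to 2 falls. The chain gene H2-Ab1 stood at 0.92 ± 0.138 CPM with IFNg and 0.883 ± 0.154 CPM with vehicle.

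Cytokine and chemokine genes rose in 15 of 22 tested cases and fell in 1 (median log2 1.34). Cxcl10 (ENSMUSG00000034855.13, chromosome 5, 92346638 to 92348889), which draws CXCR3-bearing T cells, had 13.5, 12.5, 13.1 and 14.7 CPM with IFNg, against 0.276, 0.235, 0.0832 and 0.128 CPM with vehicle (log2 6.23 ± 0.13, adjusted p = 1.4e-26). The other CXCR3 ligands stayed lower, with Cxcl9 at 0.103 ± 0.0618 CPM and Cxcl11 at 0.0688 ± 0.0271 CPM. Lif rose by 4.72 ± 0.26, the monocyte chemokine gene Ccl2 by 4.14 ± 0.38, Ccl3 by 1.01 ± 0.06 to 22.5 ± 1.1 CPM, against 11.2 ± 0.611 CPM, and Tnf by 1.09 ± 0.05. The macrophage growth factor gene Csf1 had 13, 13.2, 12.5 and 13.2 CPM with IFNg and 2.03, 2.61, 1.95 and 2.73 CPM with vehicle (log2 2.48 ± 0.10). The death ligand gene Tnfsf10 rose by 3.08 ± 0.10 to 21 ± 1.19 CPM, against 2.49 ± 0.158 CPM, and Il15 fell by 0.64 ± 0.07. On the surface side, Cd274, the checkpoint ligand PD-L1, rose by 3.34 ± 0.10 to 11.6 ± 0.706 CPM, against 1.14 ± 0.0824 CPM, and the adhesion molecule Icam1 by 2.33 ± 0.05. Cd40 had 0 counts with vehicle and was at least 39.2-fold higher with IFNg, at 0.519 ± 0.106 CPM.

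Immediate-early, NF-kB and cell death genes split. Atf3, a stress-induced repressor, had 9.34, 8.2, 8.45 and 9.18 CPM with IFNg, against 0.227, 0.15, 0.0832 and 0.0482 CPM with vehicle (log2 6.10 ± 0.24), and Egr2 had 23.9, 20.4, 20.8 and 26.5 CPM with IFNg and 2.11, 2.44, 2.18 and 2.04 CPM with vehicle (log2 3.39 ± 0.09). Egr1 and Zfp36, which destabilises cytokine mRNAs, rose by 1.33 ± 0.14 and 1.92 ± 0.09, while Dusp1, a phosphatase of MAP kinases, fell by 0.87 ± 0.13. Of 25 NF-kB genes 9 rose and 7 fell (median 0.00), and 3 fell with library totals alone, where 18.3% of all tested genes rose and 14.9% fell in the main fit. Bcl3 rose by 3.43 ± 0.32 and Tnfaip2 by 2.23 ± 0.06, whereas the inhibitor genes Nfkbia (6.27, 6.54, 5.87 and 6.78 CPM with IFNg, 9.07, 7.84, 9.47 and 9.28 CPM with vehicle), Nfkbie and Tnip1 fell by 0.49 ± 0.07, 0.39 ± 0.11 and 0.39 ± 0.06. Without mutant IFNg replicate 3 the change of Nfkbie was -0.29 and did not pass. The inhibitor genes did not fall as a class. Others of the list rose, among them Tnip2 by 0.485 (adjusted p = 4.0e-09) and Nfkbib by 0.38 (adjusted p = 0.00269). Cell death genes rose in 16 of 23 cases and fell in 2. Casp4, the sensor of cytosolic lipopolysaccharide, rose by 2.12 ± 0.16, Casp1 by 0.77 ± 0.09, and the survival gene Bcl2l1 by 1.27 ± 0.05 to 55.4 ± 1.38 CPM, against 23 ± 0.956 CPM. The macrophage effector genes Nos2, at 0 counts in both groups, and Acod1, at 0.438 ± 0.0934 and 0.388 ± 0.0851 CPM, were not raised past the test at this dose and time.

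Serpina3f and Tubb3 were further genes among the 10 largest rises. Serpina3f, a serine protease inhibitor of the antichymotrypsin family, had 0 counts with vehicle and 20.4, 19.9, 22 and 22.3 CPM with IFNg, at least 1630-fold higher. Tubb3 (ENSMUSG00000062380.4, chromosome 8, 123411424 to 123422015), the beta-tubulin isotype known from neurons, had 68.8, 61, 63.6 and 72.8 CPM with IFNg, against 0.243, 0.256, 0.133 and 0.145 CPM with vehicle, and rose by 8.43 ± 0.12 (adjusted p = 4.5e-33). Its window, printed above, held neither motif. Ptgs2, the inducible cyclooxygenase, rose by 2.12 ± 0.06 to 52.6 ± 3.3 CPM, against 12.1 ± 0.65 CPM.

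Among called genes with at least 5 CPM in a group and no overlap between the libraries, which the choice required, the 10 largest falls were 2- to 3-fold. Some genes below that level fell further, such as Cxcr2 (by 1.70 ± 0.14). Ccng2 (ENSMUSG00000029385.14, chromosome 5, 93267257 to 93276231), a cyclin found in arrested cells, had 8, 7.92, 8.1 and 9.16 CPM with IFNg, against 23.4, 21.7, 22.5 and 23.1 CPM with vehicle, and fell by 1.45 ± 0.06 (adjusted p = 5.0e-21). Hbp1, a repressor of cell cycle genes, had 22.9, 27.6, 27.3 and 22.2 CPM with IFNg and 58.1, 55.9, 56.6 and 55 CPM with vehicle and fell by 1.17 ± 0.07. Cxcr4 (ENSMUSG00000045382.6, chromosome 1, 128588199 to 128592293), the receptor that keeps progenitors in their niche through CXCL12, had 29.1, 32.1, 33.4 and 33.6 CPM with IFNg, against 68.2, 71, 67.8 and 66.8 CPM with vehicle, and fell by 1.09 ± 0.04 (adjusted p = 3.0e-22). Ifnlr1, a chain of the type III interferon receptor, fell by 1.46 ± 0.11 to 2.02 ± 0.224 CPM, against 5.54 ± 0.7 CPM. Klhl24 fell by 1.07 ± 0.05, the matrix protein gene Thbs1 by 1.04 ± 0.05, Mtus1 by 1.05 ± 0.06, Tmem119 by 1.03 ± 0.06, the protease gene Tmprss2 by 1.37 ± 0.09 and the retinal reductase gene Dhrs3 by 1.11 ± 0.10. Of 20 cholesterol genes 11 rose and 2 fell (median log2 0.17), where 18.3% of all tested genes rose and 14.9% fell. The 2 fallers were the exporters Abca1 (by 0.91 ± 0.10) and Abcg1 (by 0.70 ± 0.06). The risers included Insig1 (0.48 ± 0.07), a brake on sterol synthesis.

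Genes of lineage identity moved by less than the interferon programme. In bulk RNA, fewer cells of a type and less RNA per cell cannot be told apart. Over all tested genes 18.3% rose and 14.9% fell, and no list was tested against these shares. Of 13 tested B lymphoid genes 6 fell and 0 rose (median -0.43): Rag2 and Rag1, the recombinase of antigen receptor genes, fell by 0.70 ± 0.05 and 0.37 ± 0.04, to 53.7 ± 1.3 and 87.8 ± 1.96 CPM with IFNg, against 87.2 ± 3.23 and 114 ± 1.41 CPM with vehicle. Igll1, a surrogate light chain, fell by 0.63 ± 0.07, and Ebf1 had 71.8 ± 1.98 and 72.2 ± 3.14 CPM and did not pass. The summed level of the 15 B lymphoid genes was 300.1 to 313 CPM with IFNg and 395 to 414 CPM with vehicle, and the B cell factor gene Pax5 stayed under 0.5 CPM on average in both groups. Of 10 mast cell and basophil genes 5 fell and 0 rose, with Slc18a2 (by 0.37 ± 0.05), Prss34 (by 0.35 ± 0.08) and Hdc (by 0.21 ± 0.03). With library totals alone 3 fell, and Hdc did not pass. Of 19 neutrophil genes 5 fell and 1 rose (3 fell without mutant IFNg replicate 4 or mutant vehicle replicate 2, and with library totals alone), and the chemokine receptor gene Cxcr2 fell by 1.70 ± 0.14 to 0.919 ± 0.293 CPM, against 3.02 ± 0.288 CPM. Monocyte, macrophage and dendritic genes had 4 rises and 7 falls among 16: the Fc receptor genes Fcgr4 (3.48 ± 0.36) and Fcgr1 (1.40 ± 0.11) rose, and Cx3cr1 (by 1.01 ± 0.18) and Lyz2 (by 0.41 ± 0.10) fell. With library totals alone 2 of the 16 fell, and 4 with the structural RNA share as covariate. Summed neutrophil markers stood at 2180.5 to 2324 CPM with IFNg and 2422 to 2532 CPM with vehicle. Summed mast cell markers stood at 119.8 to 130.3 and 143 to 153 CPM, with 4 and 3 of 14 genes at 0. Summed megakaryocyte markers stood at 137 to 148 CPM with IFNg and 155 to 169 CPM with vehicle. These 3 sums, like that of the B lymphoid genes, did not overlap between groups. Monocyte, macrophage and dendritic markers overlapped between groups, at 726 to 877 and 816 to 903 CPM, and so did erythroid markers, at 900.4 to 1007 and 969.6 to 1055 CPM. Most of the erythroid sum came from Car2 alone, with a mean of 557.8 CPM with IFNg and 615.5 CPM with vehicle. In each group 5 of the 19 erythroid genes were at 0, so the sum says little about the list as a whole. T and NK cell markers summed to at most 8.58 CPM with IFNg and 7.95 CPM with vehicle. The part of any shift in cell makeup in the falls was not tested.

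Regulators of stem and progenitor cells had 8 rises and 9 falls among 25 tested (median -0.06), and 3 falls with library totals alone. Meis1, a cofactor of HOX proteins, had 34.1, 32.6, 33.6 and 34.7 CPM with IFNg and 51.4, 49.9, 51 and 53 CPM with vehicle and fell by 0.60 ± 0.04 (adjusted p = 2.0e-15). Erg, Lmo2 and Runx1, factors of the progenitor network, rose by 0.55 ± 0.05, 0.46 ± 0.03 and 0.44 ± 0.08, and their partner Tal1 fell by 0.19 ± 0.03, a call lost with library totals alone. Among genes of growth, 21 of 28 ribosome biogenesis factors rose and 1 fell (0 without mutant IFNg replicate 3 or mutant vehicle replicate 1; median 0.23), with Noc4l at 0.80 ± 0.04 and Nop2 at 0.46 ± 0.03, and Myc rose by 0.43 ± 0.05 to 249 ± 11.9 CPM, against 185 ± 7.87 CPM. Cell cycle genes had 9 rises and 9 falls among 38, and 4 falls with library totals alone. Beside these counts, 18.3% of all tested genes rose and 14.9% fell. Ccnd2 had 198 ± 9.12 CPM with IFNg and 111 ± 3.91 CPM with vehicle and rose by 0.84 ± 0.04. Of the inhibitor genes, Cdkn1b fell by 0.60 ± 0.05 and Cdkn2c by 0.40 ± 0.08, whereas Cdkn1a rose by 0.35 ± 0.05. The transcription factor gene E2f1 fell by 0.36 ± 0.06, so the list did not move in a single direction.

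Set beside the other treatments of the mutant line, Irf1 and the GTPase genes Igtp and Gbp2 stood higher with IFNg than with Pam3CSK4. Pam3CSK4 alone left Irf1 at 17.5 ± 1.17 CPM, Igtp at 4.47 ± 0.301 CPM and Gbp2 at 0.769 ± 0.0876 CPM, and the direct test of IFNg over Pam3CSK4 gave log2 differences of 4.82 ± 0.05, 7.05 ± 0.06 and 8.25 ± 0.14 (adjusted p = 5.1e-40, 1.7e-40 and 7.2e-27). Nfkbia, Tnf and Ccl3 stood the other way round: Nfkbia had 6.36 ± 0.389 CPM with IFNg and 57.9 ± 4.1 CPM with Pam3CSK4 (log2 -3.19 ± 0.07, adjusted p = 6.6e-30), Tnf 19 ± 0.908 and 51.3 ± 1.06 CPM (log2 -1.43 ± 0.05) and Ccl3 22.5 ± 1.1 and 142 ± 7.51 CPM (log2 -2.66 ± 0.05). Other cytokine genes were higher with IFNg, with log2 differences of 3.01 ± 0.10 for Csf1 and 2.54 ± 0.33 for Ccl2 (adjusted p = 5.6e-23 and 1.7e-07). With both agents together, Cxcl10 stood at 847 ± 55.1 CPM, while IFNg alone gave 13.5 ± 0.929 CPM, Pam3CSK4 alone 16.6 ± 0.728 CPM and vehicle 0.181 ± 0.0899 CPM. Gbp2 (700.0 ± 58.5 CPM with both, 234 ± 20.2 CPM with IFNg), Serpina3f (108 ± 7.57 and 21.1 ± 1.17 CPM), Cd40 (36.9 ± 2.96 and 0.519 ± 0.106 CPM) and Tubb3 (151 ± 12.3 and 66.6 ± 5.28 CPM) were likewise highest with both agents. Pam3CSK4 alone gave Cd40 4.2 ± 0.216 CPM, more than IFNg alone. The log2 difference of IFNg over Pam3CSK4 was -3.03 ± 0.15 (adjusted p = 3.2e-17). Irf1 (571 ± 8.11 and 493 ± 13.5 CPM) and Irgm1 (848 ± 18.5 and 735 ± 19 CPM) differed far less. The combined treatment was not tested against IFNg alone, and these genes were picked after their values were seen.

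The last comparison asked where the response of the mutant line differed from that of the wild-type line, by a test of the difference between the 2 log2 changes. Most induced genes responded in both lines. In the wild-type line 2645 genes rose (17.8%) and 2620 fell (17.6%). Of the mutant risers, 1994 also rose in the wild-type line, which is 73.3% of mutant and 75.4% of wild-type risers, and 1271 fallers were shared (57.4% of mutant and 48.5% of wild-type fallers). Across the 406 genes called at least 2-fold higher in either line, the changes of the lines had a Pearson r of 0.866 and a Spearman rho of 0.648 across genes, which are not independent replicates and share their libraries. The test of the difference called 123 genes with a more positive change in the mutant line (0.827%) and 122 with a more negative one (0.82%), of which 17 and 7 differed by at least 1 on the log2 scale. At an unadjusted p under 0.05 there were 2071 genes. The count of 245 moved to 136 without mutant IFNg replicate 1, to 159 and 157 without wild-type IFNg replicate 2 and 3, and to 382 and 139 without wild-type vehicle replicate 2 and 4. With the 16 libraries of the comparison alone it was 125, and with library totals as the only scaling it was 89, of which 34 were positive and 55 negative.

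**Figure D4:**
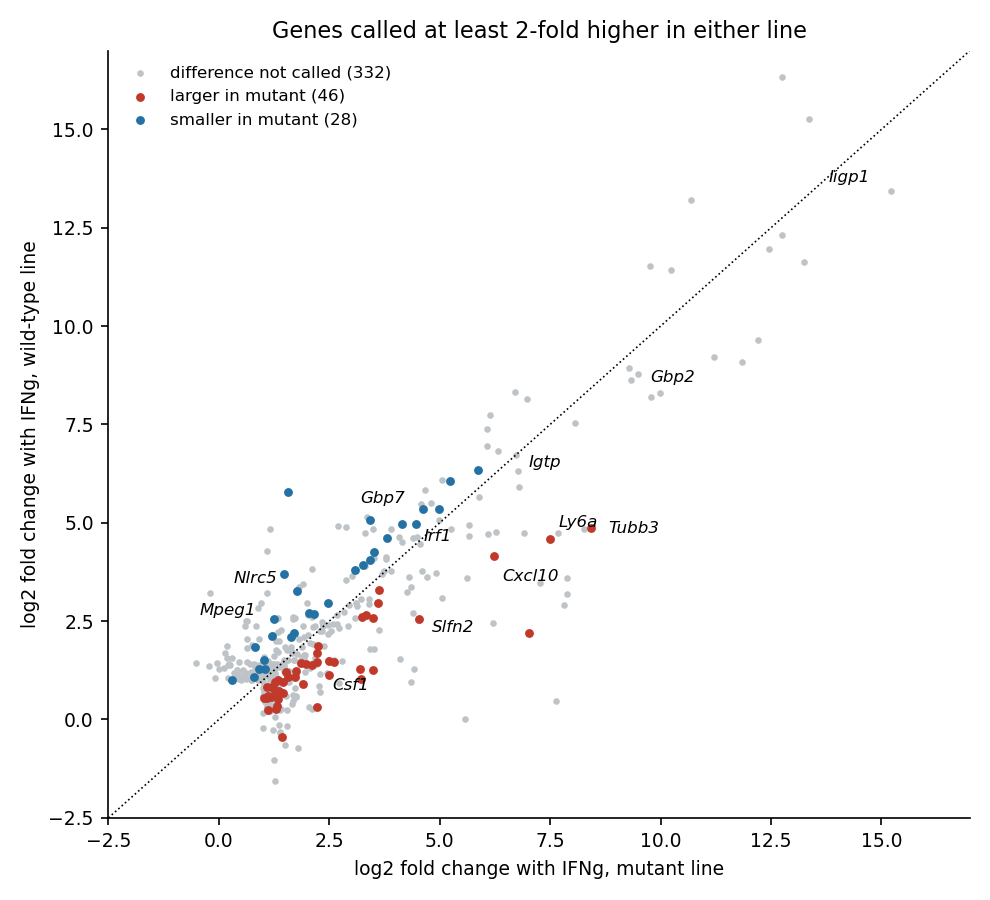
Log2 fold change with IFNg in the mutant line (horizontal) against the wild-type line (vertical) for 406 genes called at least 2-fold higher in either line, with the dotted line at equal change. The difference was called for 46 genes with a larger change in the mutant line (red, among them Tubb3 and Cxcl10) and 28 with a smaller one (blue, among them Nlrc5 and Mpeg1).

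Responses that were larger in the mutant line belonged in part to genes with less RNA before IFNg. The vehicle levels enter the difference itself, so the choice of genes favours such a start. The part of the starting level was not tested. Tubb3 rose by 8.43 ± 0.12 in the mutant line and 4.86 ± 0.08 in the wild-type line, a difference of 3.57 ± 0.18 (adjusted p = 1.6e-15). With IFNg it stood at 66.6 ± 5.28 CPM in mutant and 143 ± 5.27 CPM in wild-type cells, and with vehicle at 0.194 ± 0.0645 CPM in mutant and 4.94 ± 0.553 CPM in wild-type cells. Cxcl10 differed by 2.07 ± 0.27 (adjusted p = 1.0e-05) and reached 13.5 ± 0.929 CPM in mutant and 7.37 ± 0.614 CPM in wild-type cells, and its level with IFNg was thus higher in the mutant line as well. Slfn2 differed by 1.99 ± 0.22, with 0.2 ± 0.0599 CPM in mutant and 1.16 ± 0.0752 CPM in wild-type vehicle libraries. Csf1 (difference 0.99 ± 0.13), Pstpip2 (1.15 ± 0.19), Il12rb1 (0.99 ± 0.12), Egr1 (0.97 ± 0.20) and Clec2d (0.87 ± 0.17) completed the 8 largest positive differences among genes with at least 5 CPM in 1 of the 4 groups. Below that level, Ly6a differed by 2.92 ± 0.56 (adjusted p = 0.00235), Fcgr4 by 2.22 ± 0.47 and Icosl by 1.92 ± 0.33.

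Responses that were smaller in the mutant line included genes of the core programme that began higher there. Here too the vehicle levels are part of the difference by which genes were chosen, and the part of the starting level was not tested. Nlrc5 rose by 1.76 ± 0.05 in mutant and 3.26 ± 0.05 in wild-type cells, a difference of -1.50 ± 0.07 (adjusted p = 3.1e-17). Its levels were 252 ± 17.9 CPM in mutant and 131 ± 10.1 CPM in wild-type IFNg libraries, and 74.3 ± 2.1 CPM in mutant and 13.7 ± 0.731 CPM in wild-type vehicle libraries. Mpeg1, which encodes the pore-forming perforin-2 of phagocytes, had 58.5, 59.4, 60.0 and 64.5 CPM in mutant IFNg and 26.2, 23.8, 27.1 and 24.7 CPM in mutant vehicle libraries, and 21.8 ± 0.847 and 3.74 ± 0.367 CPM in the wild-type groups (difference -1.30 ± 0.08, adjusted p = 1.3e-14). Irf1 (difference -0.51 ± 0.06, adjusted p = 4.3e-07), Irf8 (-0.62 ± 0.07), Irf9 (-0.55 ± 0.08) and Irf7 (-0.71 ± 0.17) all had smaller log2 changes in the mutant line (that of Irf7 did not pass without mutant vehicle replicate 1 or wild-type vehicle replicate 3 or 4), as had Gbp7 (-0.74 ± 0.10), Irgm2 (-0.48 ± 0.10), Irgm1 (-0.37 ± 0.06) and Tap1 (-0.51 ± 0.06). Several of them had more RNA in mutant than in wild-type cells with IFNg: Irf1 stood at 493 ± 13.5 CPM in mutant and 353 ± 3.77 CPM in wild-type cells, Irf8 at 192 ± 4.63 and 121 ± 5.4 CPM, and Gbp7 at 342 ± 21 and 153 ± 8.08 CPM, with no overlap between the lines. Irf9, at 53.7 ± 2.48 and 56.8 ± 1.28 CPM, and Irf7, at 13.2 ± 0.907 and 11.9 ± 0.851 CPM, did not separate in this way. Igtp rose by 6.74 ± 0.06 in mutant and 6.73 ± 0.07 in wild-type cells, and the difference of 0.00 ± 0.09 did not pass the test (adjusted p = 1).

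Among fallers, Mtus1 fell by 1.05 ± 0.06 in the mutant line and had a log2 change of -0.20 ± 0.06 in the wild-type line (difference -0.85 ± 0.08, adjusted p = 2.1e-08), and Thbs1 differed by -0.76 ± 0.07 (adjusted p = 1.4e-08). Cxcr4 fell in both lines, by 1.09 ± 0.04 in mutant cells and with a log2 change of -0.68 ± 0.04 in wild-type cells (difference -0.41 ± 0.06, adjusted p = 8.3e-06). Ifngr1 fell further in the mutant line, with a difference of -0.25 ± 0.06 (adjusted p = 0.0161) that did not pass without mutant IFNg replicate 1 or wild-type IFNg replicate 2 or 3. Meis1 differed by -0.28 ± 0.05 (adjusted p = 0.00196).

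**Figure D5:**
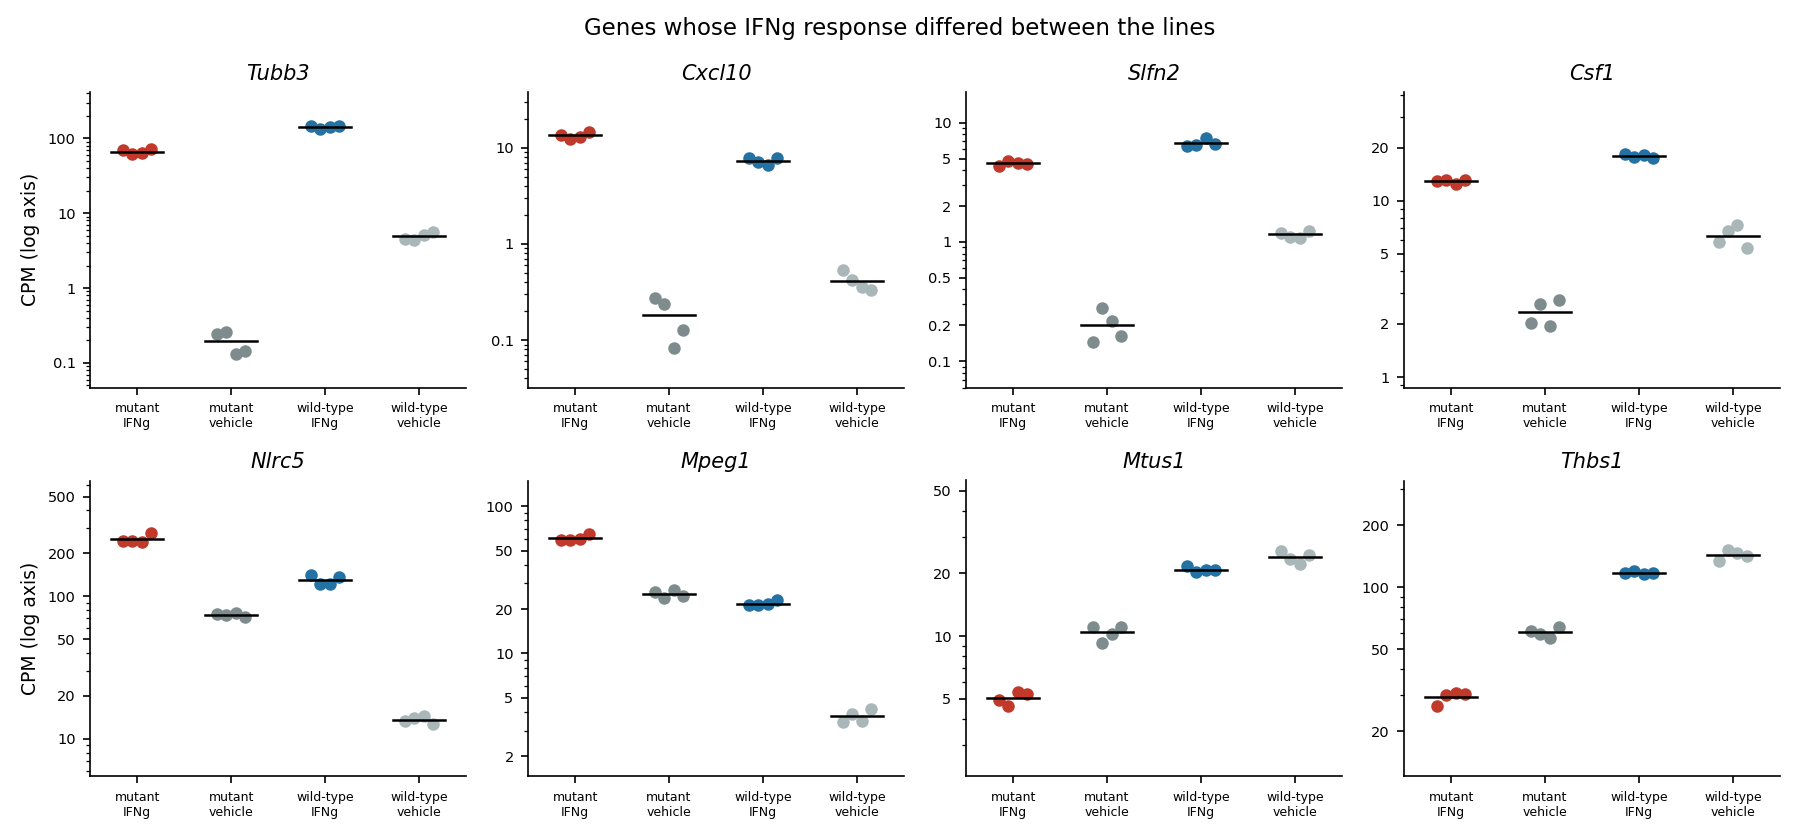
CPM on a log axis in each of the 4 libraries of mutant IFNg (red), mutant vehicle (dark grey), wild-type IFNg (blue) and wild-type vehicle (light grey) for 8 genes whose IFNg response differed between the lines, with the mean as a black line. Tubb3, Cxcl10, Slfn2 and Csf1 span a wider range in the mutant line, Nlrc5 and Mpeg1 a narrower one, and Mtus1 and Thbs1 fall further in the mutant line.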

How the data were processed

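RNA-seq libraries were made from total RNA after ribosomal RNA reduction with a stranded kit, per the labels' protocols. The authors deposited, for each library, RSEM expected counts and TPM per gene; STAR 2.5.2b, RSEM 1.3.0 and the mouse build mm10 are named in the submitters' processing notes. TPM values were used as deposited, for levels between genes only. Expected counts were rounded to whole numbers (11.07% of non-zero values were not whole). Of 55487 gene identifiers, 55394 matched GENCODE vM21 with the version ignored, which gave symbols, mm10 coordinates and gene types.

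All 32 libraries (44.18 M to 71.42 M counts) were fitted with 1 mean per group in edgeR 4.0.16 (R 4.3.3; limma 3.58.1), with filterByExpr (14869 genes kept, 40618 removed), TMM scaling and the robust quasi-likelihood test. Benjamini-Hochberg adjustment ran over all genes tested, and the threshold was 0.05. The common dispersion corresponded to a coefficient of variation of 7.22%, on 24 residual degrees of freedom. Contrasts were IFNg against vehicle in each line, the difference between them, IFNg against Pam3CSK4 in the mutant line, and the vehicle groups. Shares per library were compared by exact permutation. The test was tried on simulated counts first. DESeq2 1.42.0 and other scalings, filters, covariates and left-out libraries were alternatives. Figures and tables used Python 3.11.15 with pandas 2.3.3, scipy 1.17.1 and matplotlib 3.10.9.

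A gene with 0 vehicle counts was given a lower bound against a floor of 3 counts over the 4 vehicle libraries, and one with 1 to 3 counts a ratio with an exact binomial 95% interval. At most 4.34% of detected genes had equal values in any pair of libraries, so no library was a copy of another.

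The genes named were fixed pathway members; the 10 largest rises and falls with at least 5 CPM in a group, no overlap and a named symbol; up to 4 rises and 3 falls per gene list with at least 1 CPM; the 8 largest differences in each direction with at least 5 CPM in a group; and the 10 called risers of highest TPM. Genes outside these rules, chosen after their values were seen, were Acod1, Apol9a, Apol9b, Ccl3, Cx3cr1, Cxcl9, Cxcl11, Cybb, Ddx3y, Ddx58, Fcgr4, Ifih1, Ifit1, Mx1, Mx2, Myc, Nos2, Oas2, Oas3, Ppargc1a, Ptgs2, Rnu3a, Rsad2, Tnf and Xist; Kit, Cd34, Flt3 and Myb are progenitor markers. The comparison, gene lists and rules were chosen with earlier results of these data known. Some further genes are not reported here.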

Additional observations from a re-analysis of the deposited data

Results flagged for a closer look

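Among 169 of the genes named with values here, 46 had a response to IFNg that differed between the lines by the test of the difference. In 20 of them the log2 change was more positive in the mutant line: Tubb3 (3.57), Ly6a (2.92), Fcgr4 (2.22), Cxcl10 (2.07), Slfn2 (1.99), Icosl (1.92), Pstpip2 (1.15), Il12rb1 (0.99), Csf1 (0.99), Egr1 (0.97), Clec2d (0.87), Tnfaip2 (0.78), Ptgs2 (0.73), Cd274 (0.69), Stat2 (0.52), H2-T23 (0.42), Ccnd2 (0.38), Bcl2l1 (0.32), Tnf (0.27) and Wars (0.23). In 26 it was more negative there: Ifit1 (-1.65), Nlrc5 (-1.50), Mpeg1 (-1.30), Mtus1 (-0.85), Ifi47 (-0.83), Parp12 (-0.81), Cxcr2 (-0.81), Ifnlr1 (-0.81), Usp18 (-0.76), Thbs1 (-0.76), Gbp7 (-0.74), Irf7 (-0.71), Irf8 (-0.62), Irf9 (-0.55), Irf1 (-0.51), Tap1 (-0.51), Irgm2 (-0.48), Ddx58 (-0.48), Cxcr4 (-0.41), Uba7 (-0.39), Irgm1 (-0.37), Klhl24 (-0.35), Meis1 (-0.28), Ifnar2 (-0.26), Ifngr1 (-0.25) and Ifnar1 (-0.18). These are differences of log2 changes, mutant minus wild-type. Over all tested genes, 0.827% had a more positive and 0.82% a more negative change in the mutant line. The genes were named in part for such differences or after their values were seen. The count of 46 therefore describes that choice as well. Of 25 other fits, the call of Ifit1 was lost in 9, among them those without mutant IFNg replicate 1, mutant vehicle replicate 3 or 4, wild-type IFNg replicate 3 or wild-type vehicle replicate 1, 3 or 4 (-1.68 to -1.34). That of Cxcr2 was lost in 6, among them those without mutant IFNg replicate 1 or 4, mutant vehicle replicate 1, wild-type IFNg replicate 2 or wild-type vehicle replicate 4 (-0.79 to -0.65).

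In 338 gene and group pairs of 4 mutant libraries, 26 had 1 library whose gap to its nearest neighbour exceeded Dixon's 95% critical share of the group's range. Chance flags about 1 group in 20 by this measure where values spread normally. Genes with few reads, such as Gm4841, Gm4951 and Irf4, do not meet this condition. The CPM were rounded before the check, so a gap in the last digit, as for Ifngr2 with vehicle, may come from rounding. Among mutant IFNg libraries the highest value in CPM, set apart in this way, was that of replicate 3 for Icosl (2.48), Irf4 (0.0143) and Ticam2 (27.9), and of replicate 4 for Ccng2 (9.16), Il12rb1 (13.6), Jak2 (36.1) and Nlrc5 (278). Among mutant IFNg libraries the lowest value in CPM, set apart in this way, was that of replicate 1 for Thbs1 (26.5), replicate 3 for Il15 (3.39) and Tnip1 (9.32), and of replicate 4 for Ifi204 (70.5). Among mutant vehicle libraries the highest value in CPM, set apart in this way, was that of replicate 1 for Irf4 (0.0162) and Mx2 (21.4), replicate 2 for Ciita (0.0854), replicate 3 for Ccl2 (0.15), Gbp4 (0.0333) and Gm4951 (0.0166), and of replicate 4 for Gm4841 (0.0161), Ifngr2 (30.4), Iigp1 (0.0321) and Jak2 (33.3). Among mutant vehicle libraries the lowest value in CPM, set apart in this way, was that of replicate 1 for Batf2 (0.0974), Prss34 (3.73), Tmem119 (34.2) and Uba7 (9.96), and of replicate 4 for Lyz2 (9.47).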

How the results depend on the processing

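The number of genes called between mutant IFNg and mutant vehicle libraries was 4938 and stayed within 1.5 times of that under every alternative run: 5022 with RLE size factors, 3789 with library totals alone, 5142 with DESeq2, 4368 with no filter, 4973 with a stricter filter, 4777 with the comparison's libraries alone, 4545 with the structural RNA share as covariate, 4971 without robust dispersion, 3532 at an adjusted p below 0.01, and 4332 to 4674 with 1 library left out. The number of genes whose response differed between the lines was 245 and moved more, to 369 with DESeq2, 125 with the comparison's libraries alone, 89 with library totals alone, 101 at an adjusted p below 0.01, and 136 to 382 with 1 library left out; RLE size factors gave 245, no filter 222, the stricter filter 290 (109 positive, 181 negative), the covariate 260 and no robust dispersion 249. The cause was not tested. Of the 369 DESeq2 calls, 244 were also called by edgeR in the same direction.

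Same-numbered mutant libraries had deviations from the group means that correlated across genes at -0.001, 0.01, 0.018 and 0.099 (replicates 1 to 4; -0.063 to 0.039 between different numbers). A shared source was not established, so the numbers were not used as pairs. With the replicate block 4903 and 258 genes were called. Over 169 named genes and 2857 values under the alternatives, no log2 change turned its direction with a call, 14 values lost and 16 gained a call, and 155 genes kept theirs throughout. Of 46 differences between lines, 27 kept their call throughout and the others lost it in 79 of 1150 values, most often Parp12, Tnf, Ifnlr1, Ifit1, Ifnar1 and Cxcr2; Ifit1 lost it also with the replicate block (-1.65). The structural RNA share differed by -5.76 to -2.79 percentage points with 1 library left out, against -4.67 with all. Stricter GAS letters (TTCNNGGAA or TTCCNNGAA) were held by 11.5% of windows of 2-fold risers and 4.5% of all windows, against 15.6% and 6.91%. Genes near 1 read per library limit precision: intervals and floors cover counting error only.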

Other observations

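Oxidase, receptor and surface genes outside the comparisons above moved unevenly. Of 15 genes of microbicidal functions and metabolism 6 rose and 0 fell, where 18.3% of all tested genes rose and 14.9% fell. Apol9b and Apol9a, near-identical apolipoprotein L genes, stood at 0.673 ± 0.0873 and 0.335 ± 0.0366 CPM with IFNg and had 0 counts with vehicle, at least 51.4- and 26-fold higher. Wars, the tryptophanyl-tRNA synthetase, rose by 0.67 ± 0.04 to 117 ± 4.66 CPM, against 73.7 ± 1.65 CPM. The NADPH oxidase gene Cybb, at 0.0633 ± 0.0271 and 0.0459 ± 0.0221 CPM, did not pass. Of 21 genes of Toll-like receptor signalling 9 rose and 2 fell: Tlr4, the lipopolysaccharide receptor, rose by 0.72 ± 0.11 and the adaptor gene Myd88 by 0.48 ± 0.04, and the adaptor genes Ticam2 and Ticam1 fell by 0.29 ± 0.05 and 0.21 ± 0.08. The call of Ticam1 was lost without mutant IFNg replicate 1 (-0.22) or 2 (-0.17) and without mutant vehicle replicate 1 (-0.19) or 4 (-0.16). Of 9 costimulation and adhesion genes 6 rose and 0 fell, including Icosl, a ligand of T cell costimulation, by 3.21 ± 0.18.

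Of 12 tested genes of the GATA factor network 2 rose and 4 fell, and 2 fell without mutant IFNg replicate 2 or 4, without mutant vehicle replicate 2 or 4, with library totals alone or with the structural RNA share as covariate. These counts are small, and 18.3% of all tested genes rose and 14.9% fell. Gfi1b, a repressor of erythroid and megakaryocyte cells, fell by 0.34 ± 0.07 to 13.8 ± 1.22 CPM, against 17.5 ± 1.54 CPM. Ppargc1a, a coactivator of mitochondrial genes, fell by 0.84 ± 0.15 to 5.22 ± 0.43 CPM, against 9.36 ± 0.453 CPM. In windows of genes whose response was more positive in the mutant line, 17.3% held the ISRE core letters and 4.55% a GAS, against 14.5% and 12.1% in windows of genes whose response was more negative there. Of windows of all tested genes, 7.37% held the ISRE core letters and 6.91% a GAS. The GAS shares of the 2 sets rest on 5 of 110 and 15 of 124 windows, and their difference was not tested.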
